A study of Mus musculus with 9 samples.

Results

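Small leucine-rich proteoglycans (SLRPs) are secreted matrix proteins with a core of leucine-rich repeats, most of which carry chondroitin, dermatan or keratan sulphate chains. They bind fibrillar collagens and set how the fibrils grow and pack, and several of them, among them decorin and biglycan, also bind TGF-β in the matrix. In connective tissues, the heart included, they are made mainly by fibroblasts and related mesenchymal cells. The 9 genes described here, Bgn, Dcn, Aspn, Prelp, Fmod, Lum, Omd, Ogn and Podn, were taken by symbol from the 54532 genes in the table. They were chosen from counts and FPKM values of the same libraries that were already known, so that their levels and fold changes below are a description and carry no test.

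RNA sequencing was performed on 9 libraries of cultured C57BL/6 mouse heart cells, 3 in each of 3 groups. pECDCs are untreated primary cells, labelled P0 and, by source, as heart ventricle explant cultures. They came, by the methods of the study, from epicardium stripped off the heart, which was cut up and taken through cardiospheres. The iECDCs are such cells immortalized with hTERT, the catalytic subunit of human telomerase, and were sequenced untreated at passage 30. The treated group is labelled as iECDCs at passage 30 that received SB431542, which blocks the kinase of the TGF-β type I receptor, for 3 days, so these cells and their untreated control both carry hTERT. The methods of the study name an epithelial clone derived from pECDCs as the treated cells and another passage than the titles for pECDCs, so the cell of origin and the passage of these groups rest on the labels. The labels do not say that the 3 libraries of a group came from separate cultures, and p-values given below measure the spread between these libraries, which may be technical. The methods state fewer biological replicates for each condition than there are libraries, and they name alternative library kits and sequencing platforms without assigning them, while the labels name another kit for all libraries. Whether libraries of a group differ in culture, kit or platform was not tested.

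Total counts ranged from 16568306 to 23951392 per library, and the floor of 3 counts, at or below which a gene was taken as not detectable, was at most 1.81e-05% of a library (counting error only). Within groups, treated replicate 2 stood apart, with a chi-square per degree of freedom of 71.5 and 70.3 against treated replicates 1 and 3, compared with 3.79 between those. iECDC replicate 3 stood apart to a smaller degree (30.8 and 24.9, against 4.61 between the other iECDC libraries). The 8 fibroblast markers summed to 1510 to 2310 FPKM over all groups, most of it from Vim, Col1a1 and Col1a2. Of the same list, Tcf21 had group means of 0.516 to 1.43 FPKM and Postn at most 12 counts in any library. Of the epithelial markers, Krt8, Cdh1 and Epcam had at most 3 counts in every library, while the keratin gene Krt19 had 18.2 to 19.5 FPKM in pECDCs, 28.8 to 31.2 FPKM in iECDCs and 22.8 to 37.9 FPKM in treated cells. The 5 endothelial markers summed to at most 0.165 FPKM. Several of these markers moved between the groups, as described with the treated libraries. In such bulk libraries, fewer expressing cells and less RNA per cell cannot be told apart.

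Of the 9 genes, 7 lie in clusters that hold several SLRP genes side by side, and Bgn and Podn lie apart from these. On GRCm38, Prelp (chromosome 1, 133910304 to 133921414, minus strand) and Fmod (134037254 to 134048277, plus strand) lie 115839 bases apart with no other protein-coding gene between them. Dcn (chromosome 10, 97479609 to 97518143) and Lum (97565128 to 97572703) lie 46984 bases apart. Aspn (chromosome 13, 49544443 to 49567565), Omd (49582462 to 49592822) and Ogn (49608046 to 49624501) follow each other on the plus strand. Bgn (73483602 to 73495933) is on chromosome X and Podn (108014791 to 108096445) on chromosome 4. Aspn, Omd and Ogn lie within the span of Cenpp on the opposite strand, which had 57 to 121 counts per library and shared 7 exon bases with Aspn and 0 with Omd or Ogn. Podn overlaps the span of Scp2 on the same strand, with 0 shared exon bases, and Scp2 had 1106 to 2744 counts per library against 30 to 187 for Podn. Prelp shares 350 exon bases with the antisense gene Gm15851, which had 0 counts. The strand setting of the counting is not given in the sources used here.

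To show what lies in front of members with unlike behaviour, the 250 bases upstream of the RefSeq start are printed for Bgn, the most abundant member, for Prelp, the member with the widest range, and for Ogn, which had a TATA-like element. RefSeq promoters on GRCm38.p6 were held for 7 of the 9 genes, and none for Dcn or Lum. Capitals mark matches to the motifs searched on both strands, with overlapping matches kept. The AP-1 element was searched as TGANTCA and the SMAD element as GTCTAGAC. The TATA box was searched as TATAAA, and the GC-rich element of SP factors, called the GC box, as GGGCGG.
Bgn, chrX:73483351-73483600, plus strand: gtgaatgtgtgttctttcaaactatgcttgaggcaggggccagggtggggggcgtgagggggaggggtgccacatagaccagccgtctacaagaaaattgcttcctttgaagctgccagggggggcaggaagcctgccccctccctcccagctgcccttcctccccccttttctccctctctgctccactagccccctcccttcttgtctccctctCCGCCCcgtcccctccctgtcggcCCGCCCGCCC
Prelp, chr1:133921402-133921651, minus strand: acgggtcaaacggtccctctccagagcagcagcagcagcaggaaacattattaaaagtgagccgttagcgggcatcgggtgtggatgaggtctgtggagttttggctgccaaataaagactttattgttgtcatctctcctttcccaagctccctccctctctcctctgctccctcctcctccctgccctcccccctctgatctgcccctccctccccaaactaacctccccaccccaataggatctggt
Ogn, chr13:49607765-49608014, plus strand: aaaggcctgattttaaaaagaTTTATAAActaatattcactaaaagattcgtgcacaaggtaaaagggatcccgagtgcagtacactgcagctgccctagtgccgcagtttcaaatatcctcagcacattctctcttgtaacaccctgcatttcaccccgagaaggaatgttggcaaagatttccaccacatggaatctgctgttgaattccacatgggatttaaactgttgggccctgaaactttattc
Bgn had 3 GC boxes, all on the complementary strand and in the part nearest the start, and GC boxes were present in 32.7% of 32851 promoters of the same length. Prelp had no match to any of the 4 motifs. Ogn had 2 overlapping TATA matches, one on each strand and in the part farthest from the start. Aspn, not printed, also had 2, and 12.4% of the promoters held this motif. Neither AP-1 (6.75% of the promoters) nor SMAD (0.167%) matched in any of the 7 genes, which says only that these letters are absent from the windows. GC content was 64.4% for Bgn, 55.6% for Prelp and 42.0% for Ogn.

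Bgn encodes biglycan, a class I member that carries chondroitin or dermatan sulphate chains. Its level in FPKM, the count scaled to gene length and library, was 504, 489 and 496 in pECDC replicates 1, 2 and 3, 532, 539 and 559 FPKM in the iECDC replicates, and 371, 279 and 363 FPKM in the treated replicates. The 3 groups did not overlap, with iECDCs highest and treated cells lowest. The group means were 496 ± 7.63, 543 ± 13.8 and 338 ± 50.7 FPKM (SD, n = 3). The log2 fold change fitted with edgeR was 0.12 ± 0.0635 (SE) in iECDCs against pECDCs and -0.67 ± 0.152 in treated cells against iECDCs, the latter a 1.60-fold lower level. Against pECDCs the treated cells were lower by a log2 fold change of -0.55 ± 0.126.

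Bgn exceeded every other member in each group. In pECDCs it was 205-fold above Ogn, the next gene per length, in iECDCs 259-fold above Ogn, and in treated cells 20.2-fold above Prelp. Of all counts on the 9 genes it held 99.31% to 99.46% in pECDCs, 99.62% to 99.70% in iECDCs, and 91.10%, 96.98% and 90.94% in treated replicates 1, 2 and 3. The family as a whole took 0.307% to 0.325% of the counts of the pECDC and iECDC libraries and 0.177% to 0.256% of those of the treated libraries. Without Bgn, the other 8 genes together had 17.2 to 21.2 CPM (counts scaled to the library total) in pECDCs and 9.60 to 12.1 in iECDCs. In the treated replicates they had 227, 53.6 and 232 CPM. The total of the family and the total without biglycan therefore lay on opposite sides of the untreated libraries.

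Dcn encodes decorin, the founding member of the family, which carries a single glycosaminoglycan chain and binds collagen fibrils and TGF-β. It had 0.615, 0.903 and 0.785 FPKM in pECDCs, 0.390, 0.542 and 0.479 FPKM in iECDCs, and 17.4, 3.43 and 18.7 FPKM in treated cells. The 3 groups did not overlap, and treated replicate 2 was far below the other treated libraries but above every untreated one. The log2 fold change was -0.72 ± 0.202 (SE) in iECDCs against pECDCs. In treated cells it was 4.83 ± 0.636 against iECDCs (28.4-fold) and 4.12 ± 0.644 against pECDCs (17.4-fold). Aspn encodes asporin, a class I member that usually lacks chains. It had at most 2 counts in every library and 0 in each treated library, so no fold change is given.

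**Figure D1:**
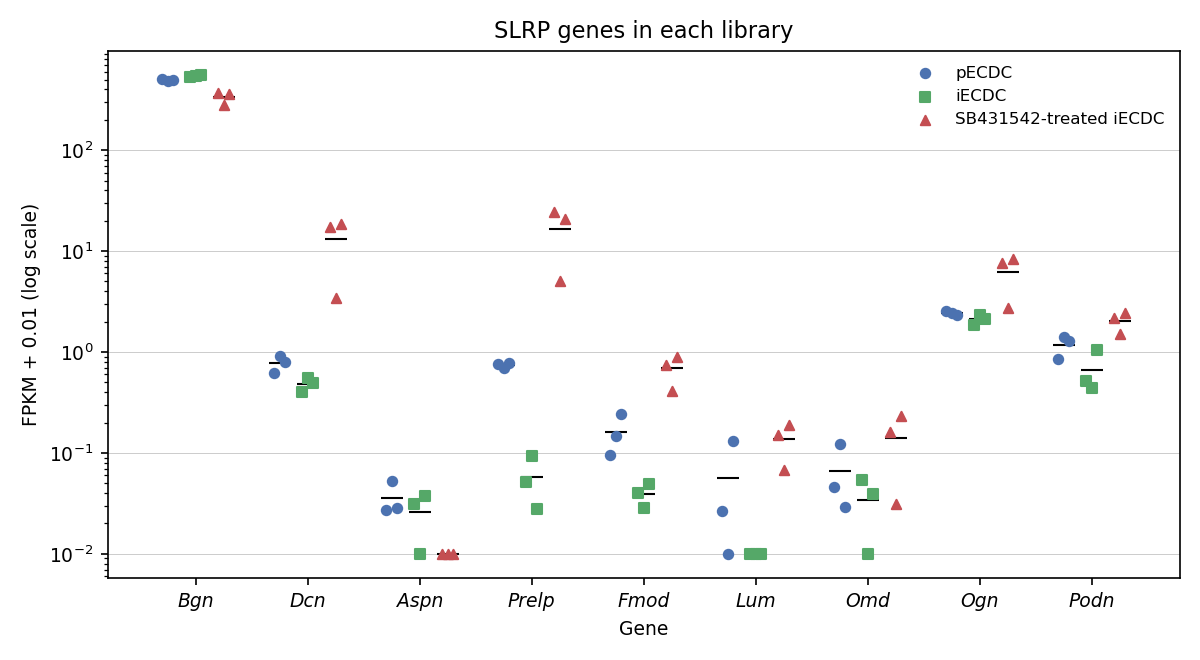
FPKM + 0.01 of the 9 SLRP genes on a log axis, with 1 point per library and a bar at the mean of each group (n = 3). Bgn stayed between 279 and 559 FPKM, while Prelp, Dcn, Fmod, Ogn and Podn were higher in all 3 treated libraries than in any untreated library, and points at the bottom edge are listed at 0.

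Class II members mostly carry keratan sulphate or are found without chains. Prelp encodes prolargin, which binds collagen and, through a basic end, heparan sulphate. Its level was 0.756, 0.681 and 0.770 FPKM in pECDCs, 0.0411, 0.0841 and 0.0180 FPKM in iECDCs, and 24.2, 5.02 and 20.8 FPKM in treated cells. The groups did not overlap. Behind the iECDC values stood 3, 5 and 1 counts, and behind the treated values 1535, 382 and 1361. The log2 fold change of -3.91 ± 0.353 (SE) in iECDCs against pECDCs corresponded to a 15-fold lower level. Against iECDCs the treated libraries had a log2 fold change of 8.40 ± 0.834. Since few counts lay under it, the ratio of pooled CPM was also taken, and it was 353 with an exact 95% interval of 186 to 774 that covers counting error only. Against pECDCs the log2 fold change was 4.51 ± 0.608 (22.7-fold).

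Fmod encodes fibromodulin, a keratan sulphate carrier that binds collagen and takes part in its cross-linking. It had 7, 9 and 18 counts in pECDCs, 2, 1 and 2 counts in iECDCs, and 43, 28 and 53 counts in treated cells. These were 0.0863, 0.137 and 0.233 FPKM, 0.0300, 0.0184 and 0.0394 FPKM, and 0.742, 0.403 and 0.887 FPKM. The groups again did not overlap, in the order iECDC, pECDC, treated. The ratio of pooled CPM of treated cells to iECDCs was 24.1 (exact 95% interval 10 to 75.4, counting error only), and that of pECDCs to iECDCs was 5.48 (2.13 to 18.0). All iECDC libraries were below the floor of 3 counts, so both ratios rest on an iECDC level taken as not detectable. Against pECDCs the treated cells had a log2 fold change of 2.14 ± 0.443 (SE).

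Lum encodes lumican, best known from the cornea, where it keeps collagen fibrils thin. It had 1, 0 and 7 counts in pECDCs, 0 in each iECDC library and 6, 3 and 8 counts in treated cells. Against a floor of 3 counts in each iECDC library, the treated cells were at least 1.83-fold higher in pooled CPM, although treated replicate 2 was itself at that floor. Treated and pECDC libraries overlapped. Omd encodes osteomodulin, a keratan sulphate member of mineralized tissue. It had 2, 5 and 1 counts in pECDCs, 2, 0 and 1 in iECDCs and 6, 1 and 9 in treated cells, and the groups overlapped. The ratio of pooled CPM of Omd in treated cells to iECDCs was 5.18 (exact 95% interval 1.48 to 27.7, counting error only). All iECDC libraries and treated replicate 2 were at or below the floor for Omd, so this ratio rests on levels taken as not detectable. For Aspn a difference between groups was not detectable at this depth.

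Ogn encodes osteoglycin, also called mimecan, a class III member. It had 2.51, 2.43 and 2.32 FPKM in pECDCs, 1.85, 2.30 and 2.13 FPKM in iECDCs, and 7.62, 2.71 and 8.35 FPKM in treated cells. The highest iECDC library was just under the lowest pECDC library, and treated replicate 2 was just above the highest pECDC library. The log2 fold change was -0.23 ± 0.133 (SE) in iECDCs against pECDCs, 1.58 ± 0.386 in treated cells against iECDCs (3.00-fold) and 1.37 ± 0.389 against pECDCs (2.58-fold). Podn encodes podocan, a class V member. Its level was 0.850, 1.39 and 1.27 FPKM in pECDCs, 0.510, 0.427 and 1.04 FPKM in iECDCs, and 2.18, 1.51 and 2.42 FPKM in treated cells. iECDC replicate 3 lay among the pECDC libraries, and the treated libraries were above all others. The log2 fold change was -0.86 ± 0.318, and without iECDC replicate 3 it was -1.31. In treated cells it was 1.65 ± 0.346 against iECDCs and 0.81 ± 0.247 against pECDCs.

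Per length, the order of the means in pECDCs was Bgn, Ogn, Podn, Dcn, Prelp, Fmod, Omd, Lum and Aspn. The ranges of Podn and Dcn overlapped, as did those of Dcn and Prelp and those of neighbours from Fmod down to Aspn. In iECDCs the same order held for the first 7, followed by Aspn and by Lum at 0, and only Bgn, Ogn and Dcn were clear of the gene below them. In treated cells Prelp (16.7 ± 10.2 FPKM, SD, n = 3) and Dcn (13.2 ± 8.48 FPKM) came next to Bgn, ahead of Ogn (6.22 ± 3.07 FPKM). The ranges of Prelp, Dcn and Ogn overlapped from one to the next, while Ogn was clear of Podn (2.04 ± 0.470 FPKM) and Podn of Fmod (0.677 ± 0.249 FPKM).

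Set beside all genes, the members counted as follows. Of the 9, edgeR's filter on low counts passed 5 for iECDCs against pECDCs (Bgn, Dcn, Prelp, Ogn and Podn), and 6 for each comparison of treated cells, where Fmod was added. A gene had to reach the minimum in 3 of the 6 libraries, so one that is near 0 in a group passed through the other group only. This was so for Fmod and, against iECDCs, Prelp, which passed through the treated libraries, and for Prelp in iECDCs against pECDCs, which passed through the pECDC libraries (49 to 67 counts). In iECDCs against pECDCs, 0 of the 5 were called higher and 2, Prelp and Dcn, lower at an adjusted p under 0.05, while 7.21% and 9.21% of 13752 tested genes were called higher and lower. The libraries did not overlap for 1 of the 9 in the higher direction (Bgn) and 4 in the lower (Prelp, Dcn, Fmod and Ogn). Among the 5 tested the numbers were 1 and 3, against 20.7% and 19.2% of the tested genes. The count of 2 was 4 without iECDC replicate 3, when Bgn and Podn were added, and 1 without pECDC replicate 2 or 3 or iECDC replicate 1 or 2.

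Of the 6 in treated cells against iECDCs, 5 were called higher and 1, Bgn, lower, where 16.0% and 14.0% of 13559 genes were. Libraries did not overlap for 6 of the 9 higher, Lum included, and 1 lower. Among the 6 tested the numbers were 5 and 1, against 23.0% and 23.5% of the tested genes. Against pECDCs, the same 5 genes were called higher and Bgn lower, where 17.9% and 17.0% of 14015 genes were. There, libraries did not overlap for 5 of the 6 tested higher and 1 lower, against 25.1% and 26.4% of the tested genes. Over all 9 members the numbers were 5 higher and 2 lower. The second of the lower genes was Aspn, with 1 or 2 counts per pECDC library and 0 in treated ones. The count of 6 against iECDCs was 3 without iECDC replicate 1 and 4 without iECDC replicate 2, and that against pECDCs was 3, 2 and 3 without pECDC replicate 1, 2 and 3. Because the members were chosen with these values known, nothing is read from the counts, and the 3 comparisons share groups, so that a low iECDC level enters both of the first 2.

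**Figure D2:**
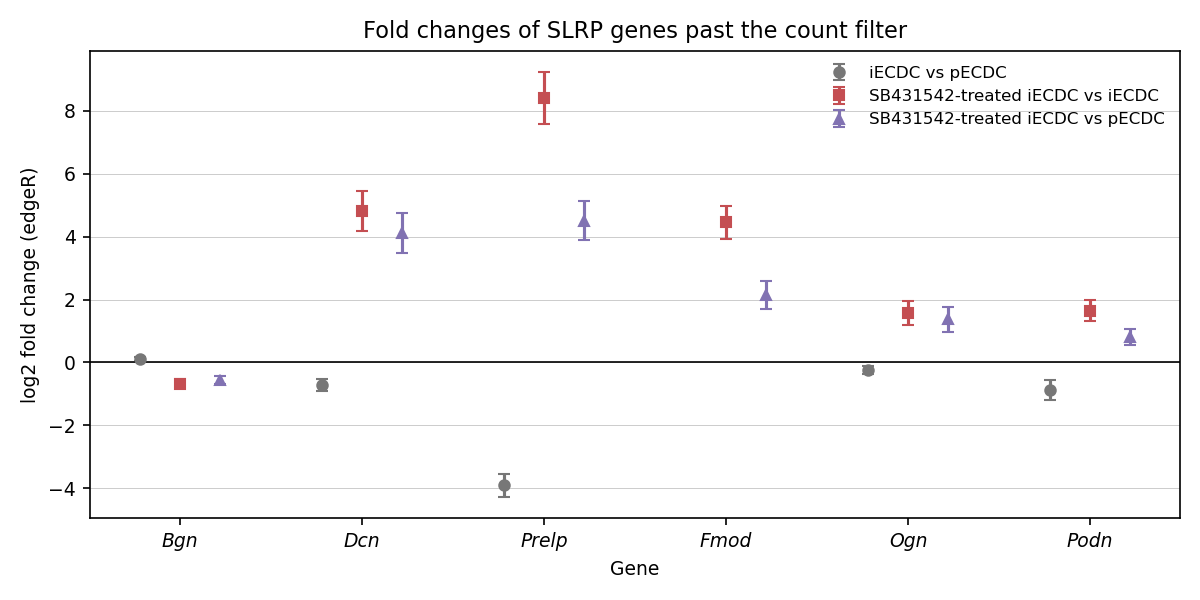
edgeR log2 fold change ± SE of the SLRP genes past the count filter, in the 3 comparisons (3 libraries per group). Values run from -3.91 for Prelp in iECDCs against pECDCs to 8.40 for Prelp in treated cells against iECDCs, and Bgn stays between -0.67 and 0.12.

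The treated libraries differed among themselves in all 6 of these genes. Here log2 CPM was taken with a small added count, which shrinks the differences of genes with few counts, such as Fmod, below the fitted fold changes. As the difference of this log2 CPM from the iECDC mean, Prelp was at 8.41, 6.16 and 8.20 in treated replicates 1, 2 and 3. Dcn was at 5.17, 2.84 and 5.28, and Ogn at 1.85, 0.38 and 1.98. For Fmod the values were 3.70, 2.87 and 3.95, and for Podn 1.79, 1.29 and 1.95. The 5 higher genes were thus least raised in replicate 2. Bgn went the other way, at -0.55, -0.95 and -0.58, with the lowest level in replicate 2. Acta2, a smooth muscle actin gene that TGF-β signalling induces, was at -3.00, -1.75 and -2.99, so it was least lowered in replicate 2. Of the 4061 genes called in treated cells against iECDCs, 85.6% differed less from the iECDC mean in replicate 2 than in the mean of replicates 1 and 3. Without replicate 2, the log2 fold change against iECDCs was 8.83 for Prelp, 5.28 for Dcn, 4.72 for Fmod, 1.94 for Ogn, 1.83 for Podn and -0.56 for Bgn. What sets this library apart was not tested.

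**Figure D3:**
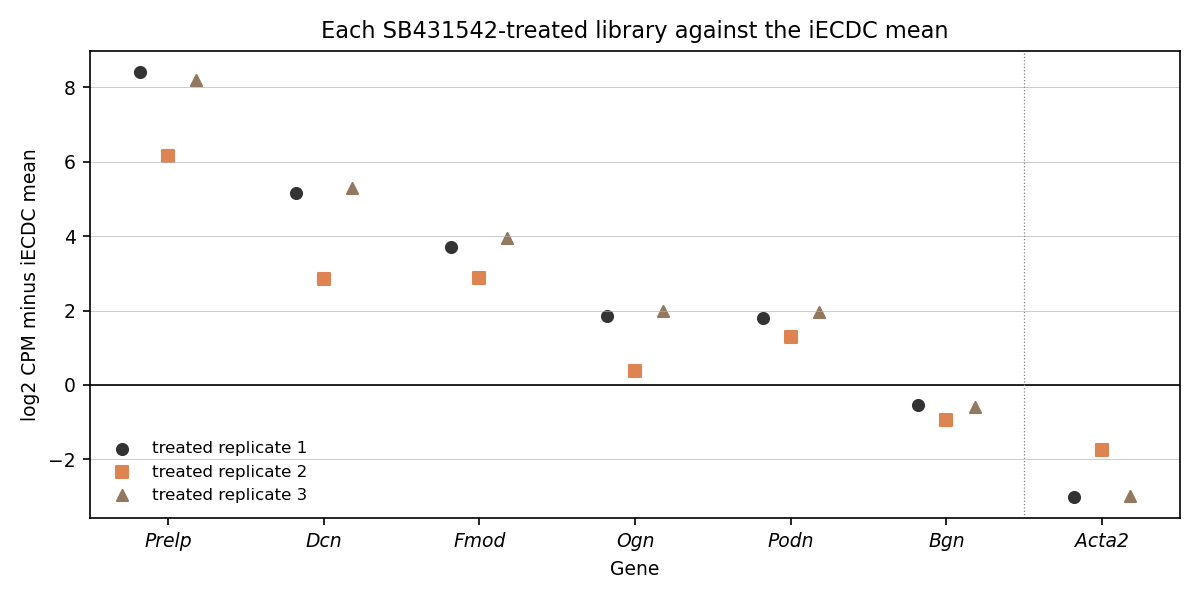
Difference of log2 CPM, taken with a small added count, of each SB431542-treated library from the mean of the 3 iECDC libraries, for 6 SLRP genes and, right of the dotted line, Acta2. Replicate 2 is nearest to 0 for every gene except Bgn, where it is lowest at -0.95.

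A list of 10 genes that respond to TGF-β was followed beside the inhibitor. Like the other lists it was chosen with earlier results of these data known, so it is a description and no independent check. With edgeR's quasi-likelihood test and Benjamini-Hochberg adjustment, 8 of the 10 were tested against iECDCs, 6 fell and 1 (Tgfbi) rose. The median log2 fold change was -2.35, where the median of all tested genes was 0.00. Of all genes tested there, 14.0% were called lower and 16.0% higher. Ctgf, which encodes a secreted matricellular protein, fell with a log2 fold change of -3.36 ± 0.356 (SE; adjusted p = 0.00102, edgeR), and Ltbp2, which encodes a matrix protein of the latent TGF-β binding protein family, fell with -4.40 ± 0.973 (adjusted p = 0.0133, edgeR). The treated replicates had 1, 78 and 1 counts of Ltbp2, which passed the filter only through the iECDC libraries (293 to 777 counts). Tgfbi, which encodes a secreted matrix protein, rose (3.53 ± 0.562, adjusted p = 0.00405, edgeR). In iECDCs against pECDCs, 10 of these genes were tested, 3 rose and 2 fell, with a median of 0.31. Ctgf (0.44 ± 0.0612, adjusted p = 0.00176) and Smad7, an inhibitory SMAD gene (0.41 ± 0.0589, adjusted p = 0.00197), were among those that rose in the edgeR test, calls lost with all 9 libraries in the fit (adjusted p = 0.423 and 0.253), and Tgfbi fell (-2.74 ± 0.243, adjusted p = 0.00014). Cdkn2b, a cell cycle inhibitor gene, had 181, 183 and 188 counts in pECDCs and 0 in every iECDC and treated library. Against pECDCs 0 of 9 tested rose and 7 fell in treated cells, with a median of -2.06, Ltbp2 and Cdkn2b among them. Both passed the filter there only through the pECDC libraries. Cdkn2b was at 0 in untreated iECDCs already, so its fall is no check of the inhibitor.

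Markers of other cells also moved between the groups. The 4 smooth muscle markers summed to 139, 331 and 139 FPKM in treated cells, against 721 to 744 in pECDCs and 817, 853 and 1920 in iECDCs. Nearly all of this was Acta2, with 137, 322 and 137 FPKM in treated cells. Of the 4, Acta2 and Myh11 were called lower in treated cells against iECDCs, and Tagln and Cnn1 were not called. Of the 10 mesothelial and epicardial markers, 4 were tested against iECDCs and 2 rose, both of which passed the filter only through the treated libraries. Wt1, at the floor in iECDCs, had 0.284 FPKM in treated cells (adjusted p = 0.00615, edgeR), and Upk3b went from 0.120 to 1.28 FPKM (3.45 ± 0.350, adjusted p = 0.000912, edgeR). Krt19, of the same list, was higher in iECDCs than in pECDCs (0.64 ± 0.0676, adjusted p = 0.000374, edgeR), a call lost with all 9 libraries in the fit (adjusted p = 0.0632), and did not pass against iECDCs in treated cells (-0.09 ± 0.191). The list summed to 38.5 to 40.8 FPKM in pECDCs, 48.1 to 56.9 in iECDCs and 64.2 to 66.9 in treated cells. Krt8, Cdh1 and Epcam were at the floor in all groups. Nearly all of this sum was Krt19 and the transcription factor gene Tbx18, so it shows no rise across the list. Tbx18 had means of 19.6, 22.4 and 34.8 FPKM in pECDCs, iECDCs and treated cells. Treated replicate 2, at 22.9 FPKM, lay within the iECDC range. Tbx18 was called higher in treated cells against pECDCs, kept in 10 of 15 alternatives, and was not called against iECDCs. Upk1b had means of 0.72, 0.292 and 0.651 FPKM, but the treated replicates had 0.218, 1.55 and 0.185 FPKM. Treated replicates 1 and 3 thus lay within its iECDC range of 0.146 to 0.451 FPKM.

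Fibroblast markers moved as well. Of 8, all were tested in iECDCs against pECDCs, 1 rose and 3 fell, and of 7 tested in treated cells against iECDCs, 3 rose and 1 fell. Pdgfra, a receptor gene for platelet-derived growth factor, had 15.3, 16.2 and 15.4 FPKM in pECDCs, 10.3, 10.8 and 10.7 in iECDCs and 21.7, 17.5 and 22.2 in treated cells. It fell in iECDCs (-0.57 ± 0.0585, adjusted p = 0.000332, edgeR) and rose in treated cells against iECDCs (0.96 ± 0.122, adjusted p = 0.0018). Its relative Pdgfrb fell and rose likewise (-0.49 ± 0.0612 and 1.23 ± 0.243, adjusted p = 0.00102 and 0.00902, edgeR), the first call being lost with all 9 libraries in the fit (adjusted p = 0.225). Tcf21, a transcription factor gene of epicardium and cardiac fibroblasts, rose in treated cells (1.47 ± 0.255, adjusted p = 0.00565, edgeR), while Vim fell (-0.64 ± 0.152, adjusted p = 0.0169), but not without iECDC replicate 2 or treated replicate 1 or 3. The 4 calls of iECDCs against pECDCs were 2 without any one of the pECDC libraries, when Vim and Col1a1 were lost, and 6 without iECDC replicate 3. The 4 calls in treated cells against iECDCs were 6 without treated replicate 2. Against pECDCs 3 rose (Tcf21, Pdgfrb and Pdgfra), 1 with any library but treated replicate 2 left out and 5 without that one, when 2 also fell.

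Of the 8 tendon and cartilage markers, tissues in which SLRPs are abundant, Tnmd, Col2a1 and Acan had at most 3 counts in every library. Sox9, a transcription factor gene of cartilage and other tissues, had means of 7.06, 4.11 and 9.45 FPKM in pECDCs, iECDCs and treated cells. It fell in iECDCs (-0.79 ± 0.0821, adjusted p = 0.000351, edgeR) and rose in treated cells against iECDCs (1.21 ± 0.149, adjusted p = 0.00168). Mkx, a transcription factor gene of tendon, fell in treated cells against iECDCs (-0.97 ± 0.251, adjusted p = 0.0233, edgeR), though not without iECDC replicate 1 or 2 or treated replicate 1. The list summed to 8.48 to 9.18, 5.41 to 5.94 and 9.22 to 12.3 FPKM in the same order of groups. Of the 6 bone markers, Bglap and Ibsp had at most 3 counts in every library and Alpl, which encodes tissue-nonspecific alkaline phosphatase, moved. It had 0.698, 1.42 and 1.17 FPKM in pECDCs, 0.221, 0.181 and 0.0807 in iECDCs and 1.61, 2.75 and 1.73 in treated cells. Alpl fell in iECDCs (-2.72 ± 0.375, adjusted p = 0.00168, edgeR) and rose in treated cells against iECDCs (3.62 ± 0.371, adjusted p = 0.000967), passing the filter only through the pECDC and the treated libraries, and unlike the 5 raised SLRP genes it was highest, not lowest, in treated replicate 2 among the treated libraries. The bone list, of which Runx2 was the most abundant, summed to 5.88 to 6.94 FPKM in pECDCs, 5.0 to 5.65 in iECDCs and 5.36 to 7.53 in treated cells. Runx2 itself had means of 5.09, 5.12 and 4.02 FPKM in pECDCs, iECDCs and treated cells. It was called lower in treated cells against pECDCs, kept in 7 of 15 alternatives, and was not called against iECDCs. The part of these cell markers in the SLRP values was not tested.

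Outside the 9 genes, 9 further SLRP or closely related genes were examined, of which 3 passed the filter. Tsku encodes tsukushi, a secreted class IV member that binds several growth factors. It had 40.1, 38.7 and 40.6 FPKM in pECDCs, 36.7, 38.3 and 45.6 FPKM in iECDCs, and 14.4, 23.4 and 13.1 FPKM in treated cells. All treated libraries were below all others, replicate 2 least so, and edgeR gave a log2 fold change of -1.23 ± 0.214 against iECDCs (adjusted p = 0.00566) and -1.22 ± 0.203 against pECDCs (adjusted p = 0.00475). Both calls held in all 15 alternatives, with an edgeR, DESeq2 or limma adjusted p of at most 0.027. Podnl1, a paralogue of podocan, was higher in iECDCs than in pECDCs (0.41 ± 0.113, adjusted p = 0.0393, edgeR), a call lost without pECDC replicate 1, 2 or 3 or iECDC replicate 2 (adjusted p of 0.0767 to 0.16) and with all 9 libraries in the fit (adjusted p = 0.133). Chadl, which shares 1023 exon bases with L3mbtl2 on the opposite strand, passed the test in no comparison. Epyc and Kera, neighbours of Lum and Dcn, had at most 1 count in any library, and Optc, Chad, Nyx and Ecm2 had at most 18.

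The enzymes that build chondroitin and dermatan sulphate chains were followed over a list of 22. In iECDCs against pECDCs 21 were tested, 1 rose and 7 fell, with a median log2 fold change of -0.20 against 0.00 over all genes. Chst15, a sulphotransferase that makes disulphated units, fell from 1.52 to 0.313 FPKM (-2.28 ± 0.192, adjusted p = 0.000106, edgeR). Chst12 (-0.75 ± 0.0726) and Chst11 (-0.64 ± 0.0561), which sulphate chondroitin at the 4-position, also fell (adjusted p = 0.000243 and 0.000131, edgeR), and Chst7, a 6-O-sulphotransferase, rose (1.20 ± 0.172, adjusted p = 0.00205). The 8 calls were 4 without pECDC replicate 1, 2 or 3, 5 without iECDC replicate 1 and 11 without iECDC replicate 3.

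Of the 22 enzymes, 20 were tested in treated cells against iECDCs, 1 rose and 6 fell, with a median of -0.13. Chst15 rose (2.09 ± 0.325, adjusted p = 0.00374, edgeR) to 1.34 FPKM. Chst7 (-1.84 ± 0.355, adjusted p = 0.00845), Chst11 (-1.27 ± 0.108, adjusted p = 0.000536) and Chsy1, a chain polymerase (-0.71 ± 0.124, adjusted p = 0.00581), fell in the same edgeR test. Chst11 had 31.0 FPKM in pECDCs, 20.1 FPKM in iECDCs and 8.29 FPKM in treated cells. The 7 calls were 4 without iECDC replicate 1 or 2 or treated replicate 1, and 10 without treated replicate 2, of which 4 were higher. Against pECDCs, 1 of 21 tested rose and 7 fell, with a median of -0.32, with 5 called without pECDC replicate 1 or 2 and 14 without treated replicate 2. Chst11 (-1.89 ± 0.0892, adjusted p = 6.51e-05, edgeR), Chst3, a 6-O-sulphotransferase (-1.72 ± 0.445, adjusted p = 0.0238), and Csgalnact1, which starts chondroitin chains (-1.20 ± 0.232, adjusted p = 0.00828), fell most, and the xylosyltransferase gene Xylt2 rose (0.43 ± 0.0926, adjusted p = 0.0121). Chst3 passed the filter only through pECDCs and was not called without pECDC replicate 1 or 2 or treated replicate 1 or 3, and Xylt2 not without pECDC replicate 1 or 2. The calls of Chst7, Chst11 and Chst15 named here held in all 15 alternatives of each comparison.

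Of 7 enzymes for keratan sulphate, 5 were tested. B4galt1, a galactosyltransferase of many glycan types, fell in iECDCs against pECDCs (-0.67 ± 0.0548, adjusted p = 9.04e-05, edgeR) and rose in treated cells against iECDCs (0.97 ± 0.163, adjusted p = 0.00504). Chst1, the sulphotransferase that acts on galactose in keratan sulphate, rose against iECDCs (0.84 ± 0.140, adjusted p = 0.00484, edgeR) and against pECDCs (0.84 ± 0.113, adjusted p = 0.00228). Chst2 fell against iECDCs (-0.70 ± 0.207, adjusted p = 0.0364, edgeR), a call lost without any one of the iECDC libraries or treated replicate 1 or 3. The counts of these enzymes were 0 higher and 1 lower in iECDCs against pECDCs, 2 and 1 in treated cells against iECDCs, and 1 and 1 against pECDCs. The medians were -0.01, 0.08 and -0.04. Against pECDCs, Chst2 (-0.44 ± 0.144, adjusted p = 0.05, edgeR) was called in 5 of 15 alternatives, and not with RLE size factors (adjusted p = 0.053), all 9 libraries in the fit (0.0722), limma (0.0534 and 0.0602), or without any one of the pECDC libraries or treated replicate 1 or 3. B3gnt2 and B4galt4 passed in none of the 3 comparisons, and B3gnt7 and Chst5 were not tested.

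**Figure D4:**
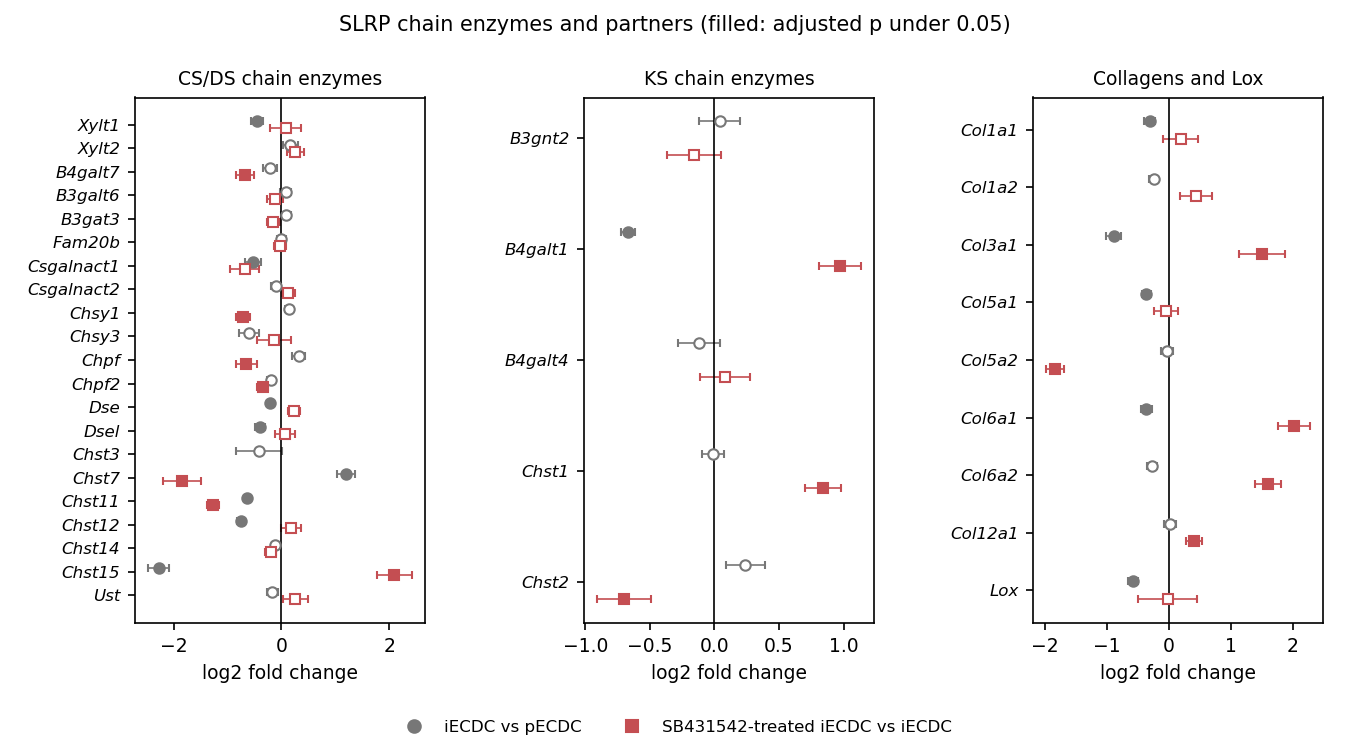
edgeR log2 fold change ± SE of enzymes for chondroitin and dermatan sulphate (CS/DS) chains, enzymes for keratan sulphate (KS) chains, and collagens with Lox, in iECDCs against pECDCs (circles) and treated cells against iECDCs (squares). Filled symbols passed an adjusted p of 0.05. Chst15 moves from -2.28 to 2.09 and Col6a1 from -0.36 to 2.02, while Chst11 and Col5a2 are below 0 in treated cells.

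Biglycan is made as a proform that the BMP1 and tolloid proteases cut. Of 5 genes for these proteases and their enhancers, 4 were tested. Tll1, which encodes tolloid-like 1, fell from 12.3 FPKM in pECDCs to 7.84 FPKM in iECDCs (-0.66 ± 0.109, adjusted p = 0.00419, edgeR) and was at 0.216 FPKM in treated cells, a log2 fold change of -5.14 ± 0.305 against iECDCs (adjusted p = 0.000315, edgeR). Pcolce2, an enhancer of procollagen cutting, rose in iECDCs against pECDCs (0.80 ± 0.117, adjusted p = 0.00229, edgeR), while Pcolce fell (-0.38 ± 0.0622, adjusted p = 0.00407). Bmp1 passed in no comparison, and Tll2 was not tested. The counts were 1 higher and 2 lower in iECDCs against pECDCs, 1 and 2 in treated cells against iECDCs, and 0 and 1 against pECDCs, with medians of -0.26, -0.62 and -0.28. The calls of Pcolce (0.80) and Pcolce2 (-1.03) in treated cells against iECDCs were lost without iECDC replicate 1 or 3 or treated replicate 1 or 3, leaving Tll1, and that of Pcolce also without iECDC replicate 2. Against pECDCs the gene called was Tll1 (-5.79 ± 0.267, adjusted p = 6.25e-05, edgeR), and 4 were called without treated replicate 2. With all 9 libraries in the fit, the calls of Tll1, Pcolce and Pcolce2 in iECDCs against pECDCs were lost (adjusted p = 0.0802, 0.269 and 0.0711, edgeR).

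Of 12 genes for collagens and the cross-linking enzyme that SLRPs act beside, 9 were tested. In iECDCs against pECDCs 0 rose and 5 fell, with a median of -0.31, led by Col3a1 (-0.89 ± 0.124, adjusted p = 0.00182, edgeR) and Lox, the lysyl oxidase that cross-links fibrils (-0.58 ± 0.0800, adjusted p = 0.00169), followed by Col5a1 (-0.36 ± 0.0801, adjusted p = 0.0154). The 3 calls were lost with all 9 libraries in the fit (adjusted p = 0.161, 0.479 and 0.255, edgeR). The 5 calls were 2 without any one of the pECDC libraries or iECDC replicate 2, and 8 without iECDC replicate 3. In treated cells against iECDCs 4 rose and 1 fell, with a median of 0.41. Col6a1 and Col6a2, chains of the beaded collagen VI that biglycan and decorin bind, rose by 2.02 ± 0.258 and 1.60 ± 0.205 on the log2 scale (adjusted p = 0.00184 for both, edgeR), and Col5a2 fell (-1.83 ± 0.146, adjusted p = 0.000395). Col3a1 rose as well (1.51 ± 0.368, adjusted p = 0.0188, edgeR), but not without iECDC replicate 1 or 2 or treated replicate 1 or 3. Col6a3, a further chain gene of collagen VI on the list, had at most 7 counts in any library and was not tested. The 5 calls were 3 without iECDC replicate 1 or 2 or treated replicate 1 or 3, and 9 without treated replicate 2, of which 8 were higher. Against pECDCs 3 rose and 1 fell, with a median of 0.21, and 10 were called without treated replicate 2. The 3 that rose with all libraries kept were Col6a1 (1.67 ± 0.249, adjusted p = 0.00334, edgeR), Col6a2 (1.34 ± 0.20, adjusted p = 0.00335) and Col12a1 (0.44 ± 0.0766, adjusted p = 0.00548). The 1 that fell was Col5a2 (-1.84 ± 0.0778, adjusted p = 4.49e-05, edgeR).

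A list of 10 held TGF-β ligands and receptors that SLRPs are known to bind. In iECDCs against pECDCs 8 were tested, 1 rose and 4 fell, with a median of -0.25. Egfr, a receptor that decorin binds, fell (-0.84 ± 0.0682, adjusted p = 8.95e-05, edgeR), and Met, another decorin receptor, rose (0.43 ± 0.0728, adjusted p = 0.00473). The ligand genes Tgfb2 (-0.60 ± 0.149, adjusted p = 0.0253) and Tgfb3 (-0.48 ± 0.0766, adjusted p = 0.00333) fell in the same edgeR test, both calls being lost with all 9 libraries in the fit (adjusted p = 0.143 and 0.0654), and that of Tgfb2 also without any one of the pECDC libraries or iECDC replicate 1 or 2. The 5 calls were 3 without pECDC replicate 1 or 3. Of 8 tested in treated cells against iECDCs 4 rose and 0 fell, with a median of 0.68, among them Tgfb3 (0.77 ± 0.153, adjusted p = 0.00929, edgeR), Tgfb2 (0.87 ± 0.245, adjusted p = 0.0305, lost without iECDC replicate 1 or 2 or treated replicate 1 or 3) and Tlr4, a receptor for free biglycan (0.92 ± 0.214, adjusted p = 0.0159, lost without iECDC replicate 1 or treated replicate 1 or 3). The 4 calls were 1 without iECDC replicate 1 or treated replicate 1 or 3, 2 without iECDC replicate 2 and 6 without treated replicate 2. Against pECDCs 2 of 9 tested rose, Tlr4 (0.71 ± 0.172, adjusted p = 0.019, edgeR) and Met (0.55 ± 0.0780, adjusted p = 0.00273), and 0 fell, with a median of 0.28. Tlr4 was not called without any one of the pECDC libraries or treated replicate 1 or 3, and 5 genes were called without treated replicate 2.

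Other proteoglycan core proteins, 24 genes for large, basement membrane and cell surface proteoglycans, moved in both directions. In iECDCs against pECDCs 14 were tested, 2 rose and 6 fell, with a median of -0.16. Cspg4, which encodes the pericyte proteoglycan NG2, had 37, 37 and 50 counts in pECDCs, 4, 5 and 8 in iECDCs and 1, 0 and 2 in treated cells. It passed the filter only through pECDCs and fell most in iECDCs (-2.47 ± 0.350, adjusted p = 0.00195, edgeR), followed by Agrn (-0.98 ± 0.0948, adjusted p = 0.000243) and Col18a1 (-0.88 ± 0.0779, adjusted p = 0.000136), both of basement membranes. The cell surface genes Sdc2 (0.34 ± 0.0673, adjusted p = 0.00948, edgeR) and Gpc4 (0.29 ± 0.0633, adjusted p = 0.0139) rose, though neither did with all 9 libraries in the fit (adjusted p = 0.112 and 0.0557) or without pECDC replicate 1 or 3, nor Gpc4 without pECDC replicate 2. In treated cells against iECDCs 13 were tested, 4 rose and 2 fell, with a median of 0.27. Tgfbr3, the betaglycan coreceptor of TGF-β, rose from 7.59 to 27.1 FPKM (1.85 ± 0.208, adjusted p = 0.0012, edgeR), and Agrn rose as well (0.77 ± 0.125, adjusted p = 0.0044). The glypican gene Gpc6 rose (0.80 ± 0.234, adjusted p = 0.0354, edgeR), but not without iECDC replicate 1 or 2 or treated replicate 1 or 3. Esm1, a secreted dermatan sulphate proteoglycan, fell from 44.2 to 6.47 FPKM (-2.75 ± 0.284, adjusted p = 0.000984, edgeR), and Gpc4 fell (-0.64 ± 0.0982, adjusted p = 0.0035). The 6 calls were 4 without iECDC replicate 1 or 2 or treated replicate 1 or 3, and 8 without treated replicate 2. Against pECDCs 5 of 14 rose and 3 fell, with a median of -0.08, and 5 were called without pECDC replicate 1 and 12 without treated replicate 2. Tgfbr3 (1.37 ± 0.204, adjusted p = 0.00329, edgeR), Gpc6 (1.28 ± 0.0874, adjusted p = 0.000197) and Sdc2 (0.65 ± 0.116, adjusted p = 0.00616) rose most. Besides Cspg4, Esm1 (-3.16 ± 0.289, adjusted p = 0.000623, edgeR) and Gpc4 (-0.34 ± 0.0722, adjusted p = 0.012, lost without pECDC replicate 1 or 2) fell.

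For the 6 members past the count filter over all 9 libraries, the genes with the most similar profile were found among 6851 protein-coding genes with a mean of at least 5 FPKM, by the root mean square difference of centred log2 CPM over the 9 libraries. This measure is a description, and the points share the libraries and the groups. Mmp3, a secreted metalloproteinase, was nearest to Prelp, at 0.294 against a range of 9.03 for Prelp itself, with group means of 9.70, 0.719 and 229 FPKM in pECDCs, iECDCs and treated cells. For Dcn the nearest were the protease inhibitor gene Serpina3n at 0.366 and Cp, which encodes ceruloplasmin, at 0.377, against a range of 5.52. Mgp, which encodes matrix Gla protein, was nearest to Fmod at 0.306, and Hmgcs1, an enzyme gene of sterol synthesis, nearest to Ogn at 0.132. Podn had Btbd2 at 0.285 and Bgn had Ppp1r13l at 0.0605, against ranges of 2.44 and 0.984.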

How the data were processed

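RNA was measured in 9 libraries, 3 each of pECDCs, iECDCs and SB431542-treated iECDCs, grouped by their labels. The authors deposited raw read counts for each gene and FPKM values, each a count divided by gene length and a constant of the library, apart from 1 value that differed by more than 1%. The deposited group means (a signal, counts over size factors), log2 fold changes and p-values of the authors' comparisons, made with DESeq according to the study's methods, were not used, and gene lengths were. The submitters' processing notes name mm9, Bowtie2 2.0.6 and TopHat2 2.0.9, while start and end equal GENCODE M21 on GRCm38 for 53499 of 54532 genes, all 9 members included. The counting program is not given in the sources used here. FPKM carry the authors' gene lengths, and errors in those would move levels between genes but not folds of 1 gene.

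Counts were fitted with edgeR 4.0.16 in R 4.3.3, after testing on simulated data, with TMM factors, filterByExpr (minimum count 10, minimum total 15), the quasi-likelihood test and Benjamini-Hochberg adjustment over all tested genes, using the 6 libraries of the compared groups. The 9 members and the 8 gene lists were chosen with earlier results of these data known. Members are all named. Of each list and comparison, up to 3 called genes in each direction with the largest change are named, and study lists of 9 or fewer are covered whole; other markers and neighbours named were chosen after their values were seen. Some values of the TGF-β response list are not reported here. Intervals of pooled ratios are exact 95% intervals. The same replicate number did not pair the libraries of different groups, as correlations of deviations from group means were -0.21 to 0.03. Alternatives were DESeq2 1.42.0, other size factors and filters, all 9 libraries in the fit, a replicate block, limma 3.58.1 on log2 FPKM with a pseudocount of 1 or of 0.1, a minimum log2 change of 1, and leaving out each library. Summaries used matplotlib 3.10.9, scipy 1.17.1, numpy 2.4.6 and pandas 2.3.3 in python 3.11.15.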

Additional observations from a re-analysis of the deposited data

How the results depend on the processing

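In all 251 refits of single SLRP genes, over the alternatives and left-out libraries, the direction of change was kept. Libraries of the compared groups did not overlap for nearly all of these genes, so a refit could hardly reverse them. The kept direction therefore adds no support. Of 206 refits of the 14 that were called, 172 kept the call and 34 did not. Dcn in iECDCs against pECDCs was called in 8 of 15, and not with all 9 libraries or either limma setting. Against pECDCs, Ogn was called in treated cells in 8 of 15 (not with limma) and Podn in 7 of 15 (not with all 9 libraries, the replicate block or limma on log2(FPKM + 0.1)), and Ogn against iECDCs in 10 of 15. The remaining losses came with a library left out. The size was less stable for low genes, and with limma on log2(FPKM + 1) Prelp came to -0.73 in iECDCs against pECDCs and Fmod to 0.69 in treated cells against iECDCs, since the pseudocount exceeds their levels. Among the listed genes named by the rule, 1492 of 1664 refitted values kept their call, 172 did not, 125 of these with a library left out, and 0 reversed. Refits of the cell markers were chosen after seeing the data.

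The number of genes called in iECDCs against pECDCs was 2258, and 1036 to 4467 with a library left out, the highest without iECDC replicate 3. It was 671 with all 9 libraries in the fit and 512 with a log2 fold change of at least 1, and the share of higher calls went from 43.9% to 31.0% and 27.3%. SLRP genes called numbered 1 to 4 with a library left out, 4 with no filter on low counts, and 1 with at least 10 counts in every library, with all 9 libraries, with either limma setting, or with a log2 fold change of at least 1. In treated cells against iECDCs 4061 genes were called, 1707 to 7001 with a library left out, the highest without treated replicate 2, and 1434 with a log2 fold change of at least 1, when the higher share went from 53.3% to 65.6%. SLRP genes called were 3 to 6 with a library left out. Against pECDCs 4881 genes were called, 2453 to 9188 with a library left out, again highest without treated replicate 2, and 1330 with a log2 fold change of at least 1, and SLRP genes called were 2 to 6. Causes of these shifts were not tested, except that a fold limit leaves fewer calls by construction.

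With the replicate number as a block, 1791, 3038 and 3886 genes were called in the 3 comparisons, although the numbers mark no shared culture. Named calls lost with it were Podnl1 in iECDCs against pECDCs (adjusted p = 0.0723, edgeR), Chst2 in both treated comparisons (0.0624 and 0.0713) and, among markers, Col1a1, Vim, Pdgfra, Pdgfrb, Runx2, Cd68 and Tnnt2 in 1 comparison each. Other size factors moved the median log2 fold change of all genes by at most 0.03. Depth limits Aspn, Lum and Omd, which had at most 9 counts in any library.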

Other observations

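The 5 haematopoietic markers summed to 7.87 to 15.8 FPKM over all libraries. Nearly all of this came from Csf1r, Cd14 and Cd68, while Adgre1 had 0 counts in every library and Ptprc at most 4. Cd14, a monocyte marker that other cells also express, rose in treated cells against iECDCs from 4.84 to 8.40 FPKM (0.80 ± 0.186, adjusted p = 0.0154, edgeR), but not without treated replicate 3. Cd68 went the other way, with means of 1.74, 1.18 and 0.949 FPKM in pECDCs, iECDCs and treated cells. It was called lower in treated cells against pECDCs, kept in 10 of 15 alternatives, and was not called against iECDCs. Csf1r was called in neither comparison. The 6 cardiomyocyte markers summed to 0.441 to 0.656 FPKM in pECDCs, 1.12 to 1.71 FPKM in iECDCs and 0.0517 to 0.446 FPKM in treated cells. Tnnt2, which encodes cardiac troponin T and was the one tested, rose in iECDCs against pECDCs (1.36 ± 0.194, adjusted p = 0.00202, edgeR), a call lost with all 9 libraries in the fit (adjusted p = 0.0657), and fell in treated cells against iECDCs (-3.07 ± 0.478, adjusted p = 0.00378). The smooth muscle myosin gene Myh11 likewise rose and then fell (2.05 ± 0.325 and -2.32 ± 0.351, adjusted p = 0.00339 and 0.0034, edgeR).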
